A study of Mus musculus with 64 samples.

Results

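The cytochrome P450 genes described here are the protein-coding mouse genes whose symbol has the form Cyp, a family number, a subfamily letter and a member number, with 3 such symbols left out by the rule. They were found by symbol in the deposited count table, which held 95 of them among 32227 genes. Levels were measured by bulk RNA sequencing of whole hippocampus in 64 libraries from 8 inbred mouse strains, CAST/EiJ, PWK/PhJ, WSB/EiJ, NOD/ShiLtJ, NZO/HlLtJ, A/J, 129S1/SvImJ and C57BL/6J. Each strain is represented by 4 female and 4 male libraries, with no treatment named and no age given in the labels. CAST/EiJ, PWK/PhJ and WSB/EiJ are wild-derived, and C57BL/6J is the strain of the mouse reference genome. The labels do not state that the 4 libraries of a group come from separate animals, so p-values measure the spread between these libraries, which may in part be technical.

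Cytochrome P450 enzymes are heme monooxygenases that insert oxygen into lipids, steroids, vitamins and foreign compounds, with electrons passed on by P450 oxidoreductase in the endoplasmic reticulum or by ferredoxin in mitochondria. The liver holds most of the drug-metabolising members. In brain, members of the Cyp2j, Cyp2u and Cyp4 groups act on arachidonate and other fatty acids, Cyp26 enzymes clear retinoic acid, and a few others act on sterols and vitamin D.

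Library totals ran from 16607602 to 27759221 counts with a median of 22176356.5, and between 28 and 47 of the 95 P450 genes had a count in a library. Of the 95 genes, 27 passed the filter on low counts and were tested, 51 had counts but did not pass, and 17 had no count in any library. The 27 tested genes held 99.3% of all P450 counts. The 18 genes with a mean of at least 1 CPM (counts scaled to a common library total by TMM factors) held 97.6%. Libraries A/J male 2 and 129S1/SvImJ female 1 correlated least with the others of their groups, and each count of calls below was repeated without them. Titles of female CAST/EiJ libraries are numbered 639 to 643 and those of all other libraries 311 to 462, so in CAST/EiJ sex and number block cannot be told apart. The tissue holds other cells besides neurons, and in such bulk samples fewer cells of a type and less RNA per cell cannot be told apart. The choroid plexus list of 14 genes varied within every strain (24.6 to 5056 summed CPM over all libraries), and the sums of the 16 hippocampal neuron genes lay between 1140 and 2067 CPM.

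Stretches before the starts of some P450 genes that lie in clusters of related genes are given first. They come from RefSeq on build GRCm38.p6 and cover the 250 bases before the start that RefSeq lists first, 5′ to 3′ on the gene's own strand. Such entries were matched by symbol for 73 of the 95 genes. Capitals mark matches, on either strand, to 5 motifs: the TATA box with the letters TATAAA, the CCAAT box, the GC box with the letters GGGCGG, the nuclear receptor core site with the letters AGGTCA, and the core of the aryl hydrocarbon receptor element with the letters GCGTG. The 4 Cyp4f genes lie in 1 cluster on chromosome 17, and their lowest strain was PWK/PhJ for Cyp4f15 and Cyp4f14, WSB/EiJ for Cyp4f16 and NOD/ShiLtJ for Cyp4f13. Of the 27 genes tested below, Cyp2j13 and Cyp2c70 had the largest share of their counts in CAST/EiJ. Cyp4f16 (chr17:32536307-32536556, plus strand), Cyp4f15 (chr17:32685409-32685658, plus strand), Cyp4f14 (chr17:32917357-32917606, minus strand), Cyp4f13 (chr17:32947362-32947611, minus strand), Cyp2j13 (chr4:96077541-96077790, minus strand) and Cyp2c70 (chr19:40187287-40187536, minus strand) read as follows.
Cyp4f16: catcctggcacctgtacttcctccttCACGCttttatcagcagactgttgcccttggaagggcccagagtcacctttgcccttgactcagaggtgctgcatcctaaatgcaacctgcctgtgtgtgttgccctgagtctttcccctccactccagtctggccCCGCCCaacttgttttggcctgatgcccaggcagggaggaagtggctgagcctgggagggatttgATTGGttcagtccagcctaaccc
Cyp4f15: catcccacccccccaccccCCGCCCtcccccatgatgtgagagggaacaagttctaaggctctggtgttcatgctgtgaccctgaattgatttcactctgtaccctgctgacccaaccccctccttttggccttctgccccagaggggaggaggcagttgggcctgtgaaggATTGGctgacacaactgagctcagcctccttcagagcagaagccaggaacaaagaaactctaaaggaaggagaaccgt
Cyp4f14: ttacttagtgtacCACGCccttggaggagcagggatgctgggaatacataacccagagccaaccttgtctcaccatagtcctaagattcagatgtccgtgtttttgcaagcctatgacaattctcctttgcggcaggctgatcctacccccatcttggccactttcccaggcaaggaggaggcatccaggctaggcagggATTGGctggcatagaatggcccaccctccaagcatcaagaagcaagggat
Cyp4f13: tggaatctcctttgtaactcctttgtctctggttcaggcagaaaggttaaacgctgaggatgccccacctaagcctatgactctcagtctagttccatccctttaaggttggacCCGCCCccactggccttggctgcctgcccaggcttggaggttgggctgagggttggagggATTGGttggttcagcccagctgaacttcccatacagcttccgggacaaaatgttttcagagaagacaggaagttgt
Cyp2j13: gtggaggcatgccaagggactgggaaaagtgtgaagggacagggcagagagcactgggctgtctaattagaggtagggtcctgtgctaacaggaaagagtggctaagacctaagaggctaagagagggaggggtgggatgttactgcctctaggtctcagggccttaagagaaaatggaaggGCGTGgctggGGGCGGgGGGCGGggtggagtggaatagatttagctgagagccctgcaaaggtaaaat
Cyp2c70: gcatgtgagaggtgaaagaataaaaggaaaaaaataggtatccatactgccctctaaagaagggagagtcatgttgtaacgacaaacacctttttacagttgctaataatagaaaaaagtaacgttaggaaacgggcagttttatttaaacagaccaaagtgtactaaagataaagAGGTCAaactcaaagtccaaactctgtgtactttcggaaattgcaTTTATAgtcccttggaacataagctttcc

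Each of the 4 Cyp4f stretches held 1 CCAAT box, read as ATTGG on the gene's strand, whose last base lay 19 bases before the listed start in Cyp4f16, 74 in Cyp4f15, 46 in Cyp4f14 and 72 in Cyp4f13. A CCAAT box stood in 6 of the 8 Cyp4f genes with an entry, in 27 of all 73 P450 genes (37.0%) and in 33.8% of the 32851 windows of all genes. The TATA box stood in none of the 8 Cyp4f genes, in 28 of the 73 P450 genes (38.4%) and in 12.4% of all windows. Cyp2c70 held a TATA box whose last base lay 24 bases before the start, and a nuclear receptor core site, which 14.0% of all windows hold. Cyp2j13 held 2 GC boxes and 1 GCGTG, which 32.7% and 28.2% of all windows hold. A match is a run of letters in the C57BL/6J reference sequence and no measurement of binding, and the sequence of the other strains was not used.

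All 27 tested genes differed among strains at an adjusted p under 0.05 at any fold in edgeR's quasi-likelihood F test with Benjamini-Hochberg adjustment over 17382 genes, where 89.2% of all genes tested did. The highest adjusted p of these edgeR tests was 0.00352, for Cyp2f2. With a range of the 8 fitted strain means of at least 1 (log2) also required, 21 of 27 P450 genes were called, against 27.6% of all genes tested. The fitted range had a median of 1.67 in the P450 genes and 0.55 in all genes tested. A range of at least 2 was reached by 12 P450 genes, against 12.1% of all genes. Low levels accompany wide ranges: all 9 tested P450 genes under 1 CPM were called, where 76.9% of the 2897 genes at that level were, and of the 18 genes at or above 1 CPM 12 were called, where 17.7% of the 14485 genes at that level were. Cyp2c70, Cyp2f2, Cyp2r1, Cyp3a13 and Cyp4a12b passed the filter only through their highest strain or strains, so these genes had to differ. Of the other 22 P450 genes 16 were called, against 25.6% of the genes that pass without any one strain. Differences of Cyp4f15 and Cyp2c70 were known when the P450 genes were chosen, and 15 of 21 genes were called, with a median range of 1.35, when both were left out as well. The filter check left out 1 strain at a time, so a gene carried by several high strains was kept. Cyp2j13 is such a gene and had to differ, and it is among the 16 of 22 and the 15 of 21. The genes behind the 25.6% may include others of this kind.

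**Figure D1:**
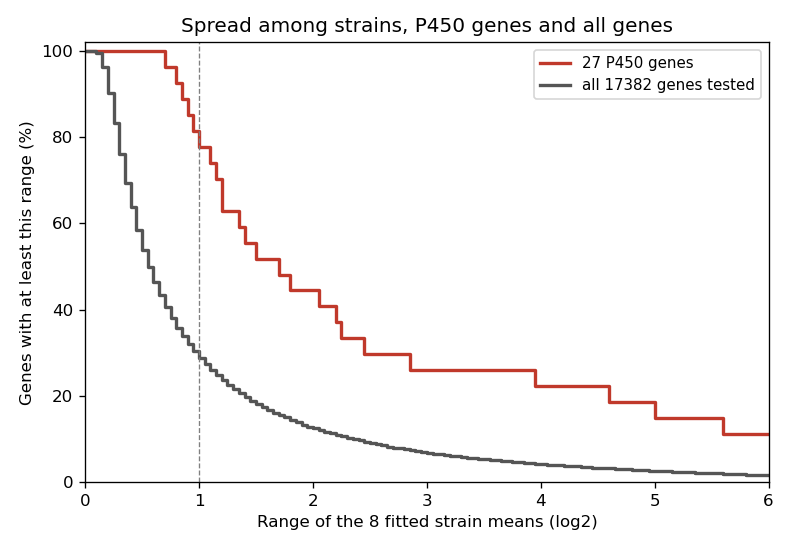
The x axis gives the range of the 8 fitted strain means (log2) and the y axis the percentage of genes with at least that range, for the 27 tested P450 genes (red) and all 17382 genes tested (grey). The P450 line lies above the line of all genes, at 77.8% against 28.8% where the range is 1 (dashed), before any requirement on the adjusted p.

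**Figure D2:**
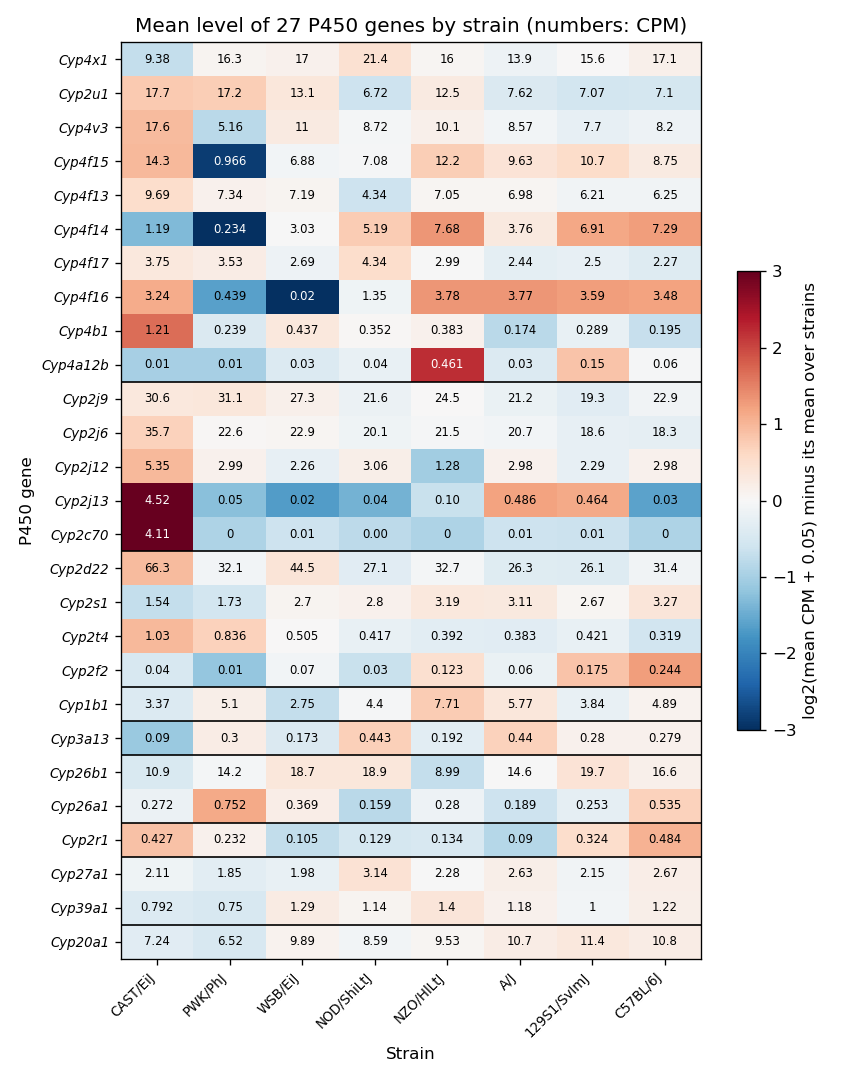
Each cell gives the mean CPM of 8 libraries of a strain (column) for a tested P450 gene (row), and its colour the log2 of that mean plus 0.05 CPM, less the gene's average over strains, cut off at 3 in either direction. Rows are grouped by role between the black lines: fatty acid hydroxylases, epoxygenases, drug and odorant enzymes of family 2, Cyp1, Cyp3a, Cyp26, vitamin D, sterols, and Cyp20a1. The darkest blue cells are Cyp4f15 and Cyp4f14 in PWK/PhJ and Cyp4f16 in WSB/EiJ, and the darkest red cells are Cyp2j13 and Cyp2c70 in CAST/EiJ.

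Among the fatty acid hydroxylases, 9 of 10 tested genes were called among strains (edgeR, as above), of 21 genes in that group, and 7 of 8 without Cyp4f15 and Cyp4a12b. The share of 27.6% of all genes applies to this count and to those of the groups below. The 10 include 5 Cyp4f genes, enzymes that hydroxylate the end of leukotrienes and other fatty acids. In GENCODE M21 the Cyp4f genes of chromosome 17 lie in the order Cyp4f39, Cyp4f17, Cyp4f16, Cyp4f37, Cyp4f40, Cyp4f15, Cyp4f14 and Cyp4f13. Reads may be shared among such similar genes, and neither the use of strand nor the treatment of reads that fit more than 1 gene is given in the sources used here, so a level of 1 Cyp4f gene is uncertain by that amount.

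The strain levels of Cyp4f15 are a description, since its wide differences were known beforehand. In PWK/PhJ the lowest library had 0.481 CPM, the median was 1.02 and the highest 1.45, while the other 7 strains had means between 6.88 CPM in WSB/EiJ and 14.3 CPM in CAST/EiJ. No PWK/PhJ library reached the lowest library of any other strain. The level averaged 0.966 ± 0.342 CPM in PWK/PhJ (SD, n = 8), with a log2 fold change of -3.33 against the mean of the other 7. CAST/EiJ stood at the top with 12.1, 14.7 and 16.3 CPM as lowest, median and highest library. NZO/HlLtJ, 129S1/SvImJ, A/J and C57BL/6J followed at 12.2, 10.7, 9.63 and 8.75 CPM.

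Cyp4f14, a leukotriene and fatty acid hydroxylase, was also lowest in PWK/PhJ. The 8 PWK/PhJ libraries had 0.0601 to 0.409 CPM with a median of 0.240, and the CAST/EiJ libraries 0.812 to 1.45 CPM with a median of 1.26. The other 6 strains had means from 3.03 CPM in WSB/EiJ to 7.68 CPM in NZO/HlLtJ. PWK/PhJ libraries lay below all others, and CAST/EiJ libraries lay between PWK/PhJ and the rest. Against the mean of the other 7, the log2 fold change was -4.12 (SE 0.14) in PWK/PhJ and -1.53 (SE 0.11) in CAST/EiJ, with adjusted p of 2.94e-32 and 6.76e-19 in edgeR. NZO/HlLtJ, C57BL/6J and 129S1/SvImJ formed the top of the order, at 7.68 ± 0.86, 7.29 ± 0.724 and 6.91 ± 0.669 CPM, and were not called different from their neighbours there. From 129S1/SvImJ downward every step, through NOD/ShiLtJ (5.19 CPM), A/J (3.76 CPM), WSB/EiJ, CAST/EiJ and PWK/PhJ, was called.

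Cyp4f16 was all but missing in WSB/EiJ, where the 8 libraries together held 3 counts and the highest had 0.0506 CPM. PWK/PhJ had 0.255 to 0.549 CPM with a median of 0.414, and NOD/ShiLtJ 0.984 to 1.79 CPM with a median of 1.37. The other 5 strains had means from 3.24 CPM in CAST/EiJ to 3.78 CPM in NZO/HlLtJ, with no neighbours among the 5 called different. PWK/PhJ was thus the lowest or next to the lowest strain for Cyp4f14, Cyp4f15 and Cyp4f16. The 685 counts in NZO/HlLtJ corresponded to 222 times the WSB/EiJ level, with a 95% exact interval of 75.5 to 1077 for counting error only. The edgeR fold change of WSB/EiJ against the other 7 had an adjusted p of 2.4e-31. Since each strain was set against the mean log level of the other 7, the low WSB/EiJ level enters that mean, and for Cyp4f16 C57BL/6J, 129S1/SvImJ, A/J, NZO/HlLtJ and CAST/EiJ were each called higher, by log2 1.52 to 1.77.

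The genes at the ends of the tested Cyp4f row, Cyp4f17 and Cyp4f13, did not follow the 3 between them. Cyp4f13 was highest in CAST/EiJ (8.34, 9.79 and 10.6 CPM as lowest, median and highest) and lowest in NOD/ShiLtJ (3.65, 4.47 and 4.85 CPM). The 6 strains between them had means of 6.21 to 7.34 CPM, with no neighbours called different, and PWK/PhJ stood at 7.34 CPM. All NOD/ShiLtJ libraries lay below all others, but at a log2 fold change of -0.73 (SE 0.06), short of the minimum of 1 set for a call. Cyp4f17 was highest in NOD/ShiLtJ at 4.34 ± 0.722 CPM and lowest in C57BL/6J at 2.27 ± 0.391 CPM, with a fitted range of 0.94, and no neighbours in its order were called different. Summed over the 9 Cyp4f genes, counts gave 12.6 ± 1.005 CPM in PWK/PhJ, 19.9 ± 1.75 in WSB/EiJ and 22.4 ± 2.76 in NOD/ShiLtJ, and 26.7 to 33.8 CPM in the other 5 strains, with a fitted range of 1.42. The sum varied less than Cyp4f14, Cyp4f15 or Cyp4f16 alone.

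**Figure D3:**
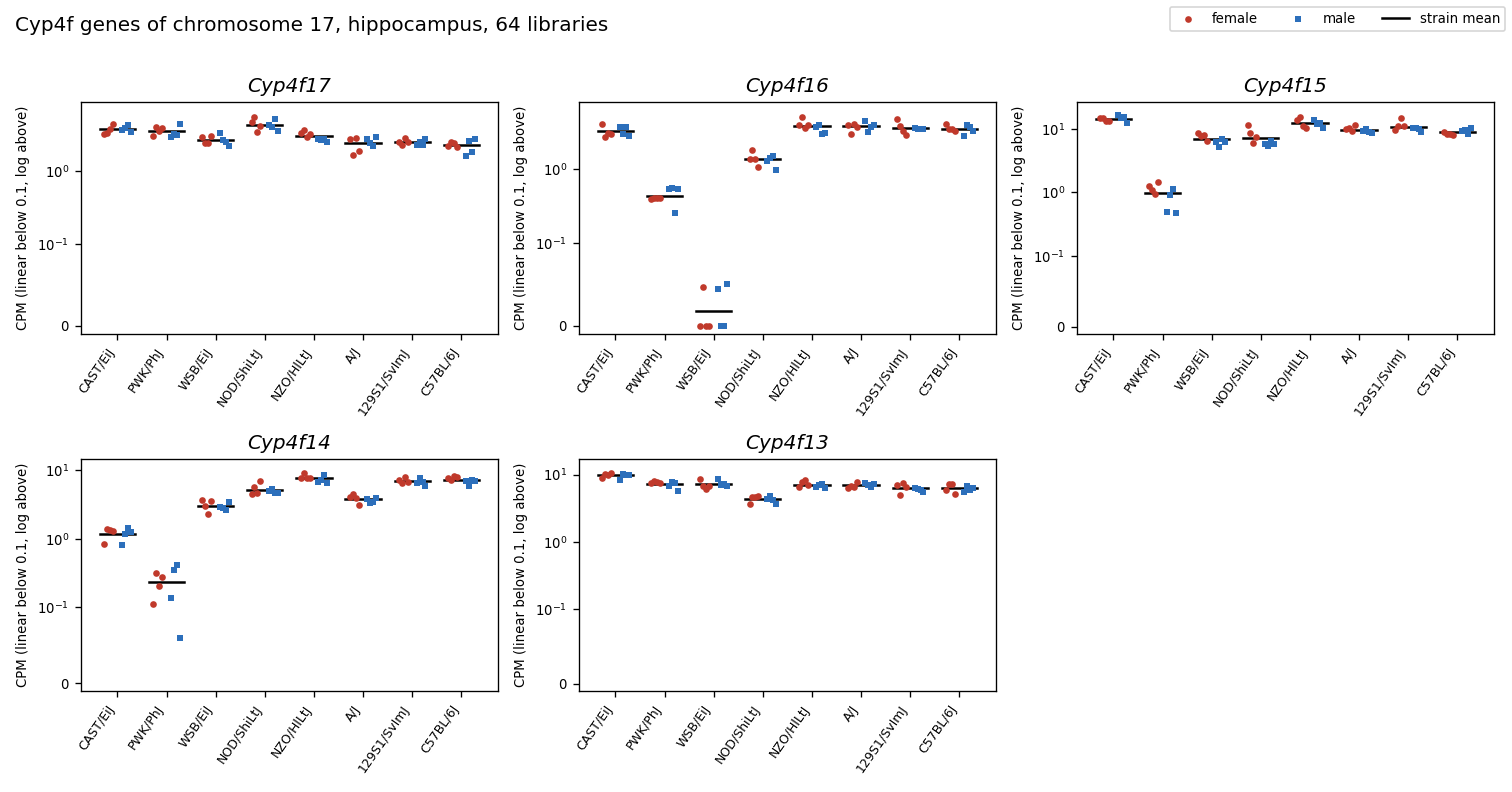
CPM of the 5 tested Cyp4f genes, in their order along chromosome 17, in each library of the 8 strains (female red circles, male blue squares, black bar the mean of 8), on an axis that is linear below 0.1 CPM and logarithmic above. PWK/PhJ lies below all other strains for Cyp4f15 and Cyp4f14, WSB/EiJ for Cyp4f16, and Cyp4f17 and Cyp4f13 stay within a 2.23-fold span of strain means.

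The remaining fatty acid hydroxylases lie outside that cluster. Cyp4v3, the mouse counterpart of the human retinal dystrophy gene CYP4V2, had 15.7 to 21.4 CPM (median 17.2) in CAST/EiJ and 4.23 to 5.77 CPM (median 5.27) in PWK/PhJ, and means of 7.70 to 11.0 CPM in the other 6 strains. CAST/EiJ libraries lay above all others and PWK/PhJ libraries below all others. CAST/EiJ was higher by log2 1.09 (SE 0.04; edgeR adjusted p 7.59e-30), and PWK/PhJ stood at log2 -0.94 (SE 0.05), under the fold minimum. Cyp2u1, a hydroxylase of long-chain fatty acids, fell into tiers. CAST/EiJ and PWK/PhJ had 17.7 ± 0.770 and 17.2 ± 0.729 CPM, WSB/EiJ and NZO/HlLtJ 13.1 ± 0.837 and 12.5 ± 1.04 CPM, and A/J, C57BL/6J, 129S1/SvImJ and NOD/ShiLtJ 6.72 to 7.62 CPM. The steps between tiers were called in pairwise edgeR tests, and no neighbours within a tier were. No single strain passed the fold minimum for Cyp2u1, though its range of 1.40 did.

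Cyp4x1, a brain enzyme whose human counterpart acts on anandamide, was lowest in CAST/EiJ with 8.69 to 10.2 CPM (median 9.40) and highest in NOD/ShiLtJ with 18.3 to 24.5 CPM (median 21.5). The other 6 strains had means of 13.9 to 17.1 CPM, none called different from its neighbour. The CAST/EiJ libraries lay below all others, at a log2 fold change of -0.82 (SE 0.05). Cyp4b1, known from lung for activating foreign compounds, averaged 1.21 ± 0.196 CPM in CAST/EiJ (lowest 0.899, median 1.29, highest 1.40), and no library of the other strains exceeded 0.578 CPM. CAST/EiJ was higher by log2 2.10 (SE 0.14; edgeR adjusted p 2.54e-19), and A/J, the lowest strain at 0.174 ± 0.0859 CPM, was called lower (-1.12, SE 0.22, edgeR adjusted p 5.23e-05). Cyp4a12b, an arachidonate hydroxylase of kidney, was seen mainly in NZO/HlLtJ (0.138 to 0.782 CPM, median 0.492) and in 129S1/SvImJ (0.150 ± 0.156 CPM), given without a test since it passed the filter only through NZO/HlLtJ. CAST/EiJ and PWK/PhJ each held 1 count of this gene in all. Its near-identical neighbours make the assignment of these few reads uncertain.

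In the epoxygenase group, 3 of 5 tested genes were called, of 23 in the Cyp2c and Cyp2j subfamilies, and 2 of 4 without Cyp2c70. Of these 2, Cyp2j13 passed the filter only through strains where it is high. The group was set by symbol and named for members that make epoxides from arachidonate, which not every member need do. All of the 5 but Cyp2j9 were highest in CAST/EiJ. Cyp2c70, a liver enzyme of bile acid hydroxylation in rodents, was the second gene known for its differences beforehand and is likewise described without a test. It had 735 counts in CAST/EiJ, at 3.24 CPM in the lowest library, 4.18 in the median and 4.92 in the highest. The 56 libraries of the other 7 strains held 7 counts, in 7 libraries, and C57BL/6J, NZO/HlLtJ and PWK/PhJ held none. Per count of sequencing the CAST/EiJ level was 728 times that of the other strains together, with a 95% exact interval of 352 to 1818 for counting error. Against the floor of 3 counts over a strain's 8 libraries, it was at least 238-fold higher than in C57BL/6J, at least 247-fold higher than in NZO/HlLtJ and at least 225-fold higher than in PWK/PhJ. CAST/EiJ females averaged 3.93 ± 0.396 CPM and males 4.30 ± 0.730 CPM (SD, n = 4 each), so both number blocks held the gene. Of the 12 hepatocyte markers, Alb, Apoa1, Fgb, Fga, Serpina1a, Ahsg, Hpx and Tat had means under 0.1 CPM in CAST/EiJ, and Apoc3 averaged 0.118 CPM there. Apoa2 averaged 0.376 CPM in CAST/EiJ and 0.361 CPM in C57BL/6J, where no Cyp2c70 count was found, and at most 0.0120 CPM in the other 6 strains. The whole list summed to 118 to 4698 CPM in CAST/EiJ libraries with a median of 1809, and the other strains had medians of 225 to 1392 CPM. Ttr and Trf carried these sums. Ttr, which the choroid plexus also makes and which stands on that list too, had a median of 1672 CPM in CAST/EiJ (10.2 to 4576), and medians of 31.1 to 1198 CPM in the other strains. Trf was lowest in CAST/EiJ, with a median of 114 CPM.

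Cyp2j13 lies at 1 end of the Cyp2j cluster of chromosome 4, followed by Cyp2j12. CAST/EiJ libraries had 3.20 to 5.84 CPM of Cyp2j13 with a median of 4.46. A/J and 129S1/SvImJ had 0.486 ± 0.179 and 0.464 ± 0.205 CPM, and the other 5 strains had means of 0.0229 to 0.0959 CPM. These make 3 tiers, with CAST/EiJ above all other libraries and the steps below CAST/EiJ and below 129S1/SvImJ called in pairwise edgeR tests. The log2 fold change against the mean of the other 7 was 5.66 (SE 0.16) in CAST/EiJ, 1.97 (SE 0.26) in A/J and 1.93 (SE 0.25) in 129S1/SvImJ. C57BL/6J, NOD/ShiLtJ, PWK/PhJ and WSB/EiJ were called lower in the same comparison, by log2 1.67 to 2.69. Their own neighbours in the order were not called different, and the high CAST/EiJ level enters the mean. No library of these 4 strains or of NZO/HlLtJ exceeded 0.242 CPM. Cyp2j13 thus passed the filter only through CAST/EiJ, A/J and 129S1/SvImJ, and had to differ from the other 5 strains. Its calls are no support for a difference from those 5, and no p-values are given.

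Cyp2j12 had 4.12 to 7.43 CPM (median 4.87) in CAST/EiJ and 0.552 to 1.77 CPM (median 1.24) in NZO/HlLtJ, and means of 2.26 to 3.06 CPM in the other 6 strains. The log2 fold changes were 1.12 (SE 0.11) in CAST/EiJ and -1.22 (SE 0.14) in NZO/HlLtJ, with edgeR adjusted p of 1.4e-13 and 1.67e-10. The lowest CAST/EiJ libraries overlapped the highest of other strains. Cyp2j6 and Cyp2j9, the Cyp2j enzymes best known from mouse brain, were at far higher levels per length: 6.25 and 7.43 CPM per kilobase of exon, against 1.49 for Cyp2j12 and 0.152 for Cyp2j13, averaged over all libraries. Cyp2j6 had 32.1 to 42.7 CPM in CAST/EiJ (median 35.6), above the highest library of any other strain, 25.2 CPM, at a log2 fold change of 0.79 (SE 0.04). Cyp2j9 averaged 31.1 ± 3.75 CPM in PWK/PhJ and 30.6 ± 1.88 CPM in CAST/EiJ, not called different from each other, and 19.3 to 27.3 CPM in the other 6 strains. Both ranges, 0.97 and 0.69, stayed under 1.

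**Figure D4:**
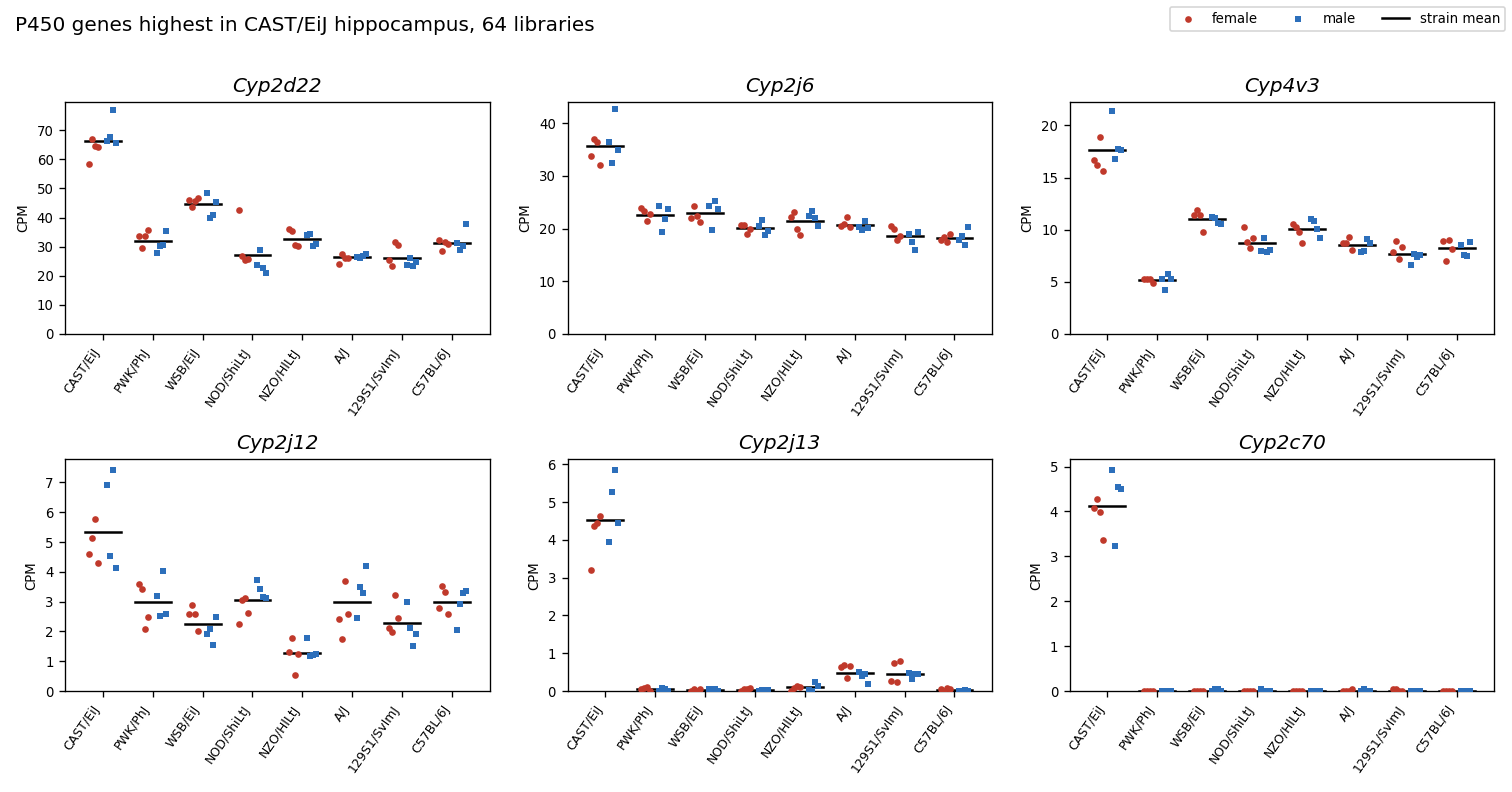
CPM of 6 P450 genes in each library by strain (female red circles, male blue squares, black bar the mean of 8). CAST/EiJ has the highest mean in all 6 panels; its libraries lie apart from all others for Cyp2d22, Cyp2j6, Cyp4v3, Cyp2j13 and Cyp2c70, and overlap others for Cyp2j12.

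In the group of drug and odorant enzymes of family 2, 4 of 23 genes were tested and all 4 were called, 1 of which, Cyp2f2, passed the filter only through C57BL/6J and 129S1/SvImJ. Cyp2d22, the Cyp2d enzyme with the highest level here, led all P450 genes per length with 9.16 CPM per kilobase averaged over all libraries. It had 58.5 to 76.8 CPM (median 66.0) in CAST/EiJ and 40.0 to 48.3 CPM (median 45.5) in WSB/EiJ, and means of 26.1 to 32.7 CPM in the other 6 strains. CAST/EiJ lay above all other libraries, log2 1.10 over the mean of the other 7 (SE 0.05; edgeR adjusted p 3.74e-27). The steps from CAST/EiJ to WSB/EiJ, from WSB/EiJ to NZO/HlLtJ and from C57BL/6J to NOD/ShiLtJ were called. In CAST/EiJ, females averaged 63.5 ± 3.58 CPM and males 69.1 ± 5.22 CPM. Cyp2t4 was also high in CAST/EiJ (1.03 ± 0.129 CPM; log2 1.20, SE 0.14, edgeR adjusted p 8.9e-11), and PWK/PhJ followed at 0.836 ± 0.213 CPM, not called different from it. Cyp2s1, an epithelial enzyme, went the other way, at 1.54 ± 0.427 CPM in CAST/EiJ and 1.73 ± 0.399 CPM in PWK/PhJ, against 2.67 to 3.27 CPM in the other 6 strains. Its range was 1.09, no single strain passed the fold minimum, and the range was 0.98 without CAST/EiJ male 4. Cyp2f2, which activates naphthalene in lung, averaged 0.244 ± 0.291 CPM in C57BL/6J, an SD above the mean, and 1 count was found in PWK/PhJ. Its log2 fold change in C57BL/6J was 2.13, and 0.84 without C57BL/6J male 4. Since Cyp2f2 passed the filter only through strains where it is high, its calls are no support for a difference. Its lower call in PWK/PhJ (edgeR adjusted p 0.0259) also ended when the meningeal fibroblast score was added as a covariate, at 0.0742.

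Among the retinoic acid hydroxylases, Cyp26b1 and Cyp26a1 were called and Cyp26c1 did not pass the filter. Cyp26b1 had 6.53 to 12.8 CPM (median 8.75) in NZO/HlLtJ, and 15.9 to 23.7 CPM (median 20.1) in 129S1/SvImJ, the highest strain. The log2 fold change of NZO/HlLtJ was -0.83 (SE 0.09), and 129S1/SvImJ, NOD/ShiLtJ, WSB/EiJ, C57BL/6J, A/J and PWK/PhJ formed a run in which no neighbours were called different. Cyp26a1, at a mean of 0.351 CPM over all libraries, was highest in PWK/PhJ at 0.752 ± 0.263 CPM (log2 1.42, SE 0.19, edgeR adjusted p 7.8e-09) and lowest in NOD/ShiLtJ at 0.159 ± 0.0810 CPM (log2 -1.07, SE 0.26, edgeR adjusted p 0.000878). The NOD/ShiLtJ fold fell short of 1 when any of 3 libraries of that strain was left out, at log2 -0.96 to -0.99.

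Cyp1b1, which oxidises estrogens and aryl hydrocarbons, had 6.48 to 9.28 CPM (median 7.66) in NZO/HlLtJ and 1.67 to 3.24 CPM (median 2.77) in WSB/EiJ, with the other 6 strains at 3.37 to 5.77 CPM. The step below NZO/HlLtJ was called and no later step was. Steps compare neighbours only, and 4 of 28 pairs of strains were called at a log2 difference of at least 1. The endothelial and mural cell list was also highest in NZO/HlLtJ by median (473 summed CPM, libraries from 380 to 495, against strain medians of 337 to 465 elsewhere), and so was the meningeal fibroblast list (418 summed CPM, libraries from 252 to 586, against strain medians of 162 to 278). All 16 and all 14 genes of these lists passed the filter. Their part in the Cyp1b1 level of NZO/HlLtJ was not tested. The range of Cyp1b1 remained called in a fit with a meningeal covariate, but that range also rests on the low WSB/EiJ level. No endothelial covariate was fitted. Cyp3a13, a steroid and drug oxidase, was lowest in CAST/EiJ at 0.0895 ± 0.0733 CPM and had means of 0.173 to 0.443 CPM elsewhere. Cyp2r1, a vitamin D hydroxylase, averaged 0.484 ± 0.122 CPM in C57BL/6J and 0.427 ± 0.171 CPM in CAST/EiJ. Its lowest means were 0.105 ± 0.131 CPM in WSB/EiJ and 0.0925 ± 0.0528 CPM in A/J. Both genes are given without a test, since they passed the filter only through strains where they are high.

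**Figure D5:**
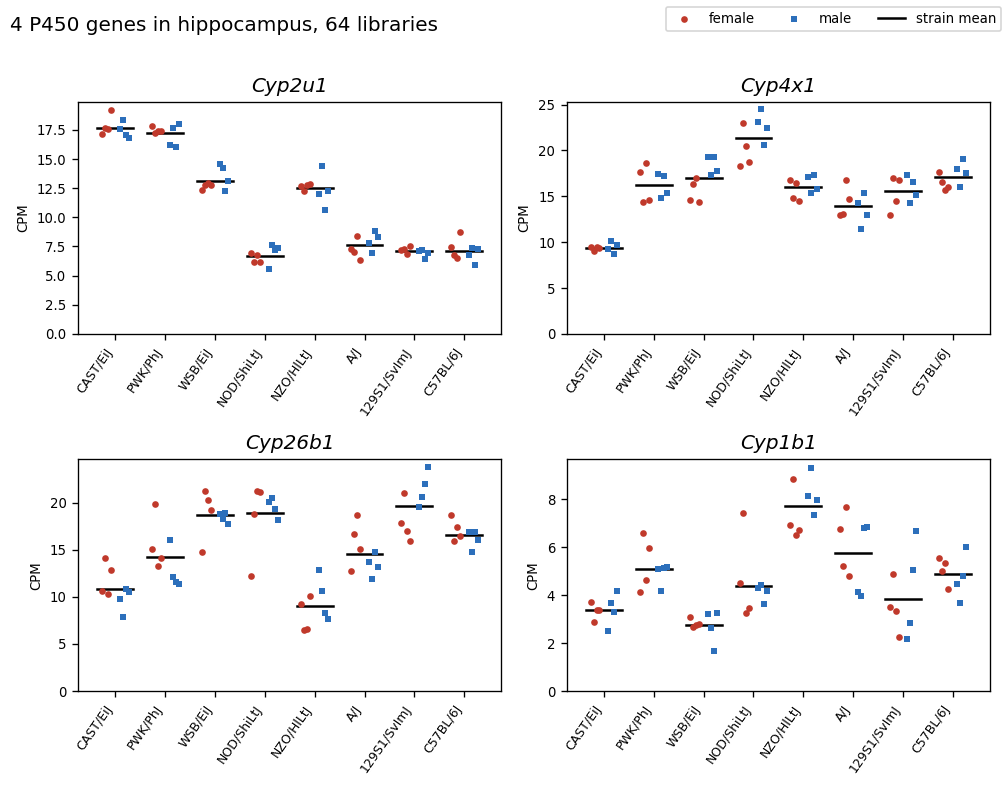
CPM of Cyp2u1, Cyp4x1, Cyp26b1 and Cyp1b1 in each library by strain (female red circles, male blue squares, black bar the mean of 8). Cyp2u1 has means of 17.7 and 17.2 CPM in CAST/EiJ and PWK/PhJ and at most 7.62 CPM in A/J, 129S1/SvImJ, C57BL/6J and NOD/ShiLtJ; Cyp4x1 is lowest in CAST/EiJ, Cyp26b1 in NZO/HlLtJ and Cyp1b1 in WSB/EiJ.

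Neither tested sterol enzyme was called. Cyp27a1, the mitochondrial sterol hydroxylase, ran from 1.85 ± 0.523 CPM in PWK/PhJ to 3.14 ± 0.353 CPM in NOD/ShiLtJ, and Cyp39a1, which acts on hydroxycholesterol made in brain, from 0.750 ± 0.256 CPM in PWK/PhJ to 1.40 ± 0.236 CPM in NZO/HlLtJ. Neither range, 0.77 and 0.89, reached 1, and no neighbours in either order were called different. The range of Cyp39a1 was 1.05 without PWK/PhJ female 2. Cyp20a1, an enzyme with no settled substrate, ran from 6.52 ± 0.520 CPM in PWK/PhJ to 11.4 ± 1.03 CPM in 129S1/SvImJ, a range of 0.81, and the step from NOD/ShiLtJ to CAST/EiJ was the one called. None of the 5 steroid hormone enzymes passed the filter.

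Set strain by strain, CAST/EiJ had the most P450 calls, 12 of 27, with 10 higher and 2 lower, against 9.25% of all genes tested (4.02% higher and 5.22% lower). Left without Cyp4f15, Cyp2c70, Cyp2f2, Cyp2r1, Cyp3a13 and Cyp4a12b, 21 genes had 8 calls in CAST/EiJ, 7 higher and 1 lower. Cyp2j13, which also passed the filter only through high strains, is among the 21. The 10 higher genes were Cyp2c70, Cyp2d22, Cyp2j12, Cyp2j13, Cyp2r1, Cyp2t4, Cyp4b1, Cyp4f15, Cyp4f16 and Cyp4v3. For Cyp4f16, also counted among the 7, NZO/HlLtJ, A/J, 129S1/SvImJ and C57BL/6J had higher means than CAST/EiJ. Its low WSB/EiJ and PWK/PhJ levels enter the mean of the other 7. For Cyp2r1 C57BL/6J had a higher mean than CAST/EiJ. For 6 P450 genes every CAST/EiJ library lay above all other libraries, against 2.15% of all genes, and for 5 of the 21. CAST/EiJ had the highest mean for 11 of the 27 genes and 9 of the 21, where it had the highest for 19.0% of all genes tested. PWK/PhJ had 6 calls, 1 higher and 5 lower (all genes: 9.35%, with 3.75% higher and 5.6% lower). The 5 lower genes were Cyp2f2, Cyp2j13, Cyp4f14, Cyp4f15 and Cyp4f16. For Cyp2j13, NOD/ShiLtJ, C57BL/6J and WSB/EiJ had lower means than PWK/PhJ, and the high CAST/EiJ level enters the mean of the other 7. The Cyp2f2 call is no support for a difference, since that gene passed the filter only through C57BL/6J and 129S1/SvImJ. For 3 P450 genes every PWK/PhJ library lay below all other libraries (Cyp4f14, Cyp4f15 and Cyp4v3), against 1.65% of all genes. Of the 21 genes, 4 were called in PWK/PhJ, and 2 had all PWK/PhJ libraries below all others. C57BL/6J had 5 calls (all genes: 3.85%), 129S1/SvImJ 4 (3.64%), A/J 4 (3.58%), NZO/HlLtJ 4 (3.65%), WSB/EiJ 3 (4.95%) and NOD/ShiLtJ 2 (3.91%). Of the 21 genes, C57BL/6J, 129S1/SvImJ, A/J and NZO/HlLtJ had 3 calls each, and WSB/EiJ and NOD/ShiLtJ 2 each. Cyp2j13 or Cyp4f16 is among the calls of each of these strains, and extreme levels of other strains enter their means. The 8 comparisons share libraries and are not independent of each other. The summed level of all 95 genes was 255 ± 11.8 CPM in CAST/EiJ (241 to 280), and no library of the other strains, whose means ran from 169 CPM in A/J to 198 CPM in WSB/EiJ, exceeded 208 CPM.

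The 68 genes that did not pass the filter had at most 13 counts in a library and a mean of at most 0.223 CPM. Of these, 23 had at least 20 counts over all 64 libraries, and 5 had over 50% of their counts in CAST/EiJ. The same share was not taken over all genes that did not pass the filter, so whether 5 of 23 is unusual was not tested. These 5 were Cyp2b10 with 48 of its 66 counts in CAST/EiJ, Cyp2b19 with 65 of 108, Cyp2c55 with 33 of 41, Cyp2c65 with 40 of 51 and Cyp2d10 with 39 of 55. Each had a count in all 8 CAST/EiJ libraries. Cyp2j11 instead had 50 of its 66 counts in PWK/PhJ. These genes were selected after their values were seen and were not tested singly. Cyp2b and Cyp2c enzymes oxidise drugs and fatty acids in liver and gut, and Cyp2c55, Cyp2c65 and Cyp2c70 lie in the same cluster of chromosome 19. Summed over its 5 genes, Cyp2b gave 0.630 ± 0.224 CPM in CAST/EiJ, and 0.0113 to 0.117 CPM in the other 7 strains.

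Sex differences were small beside those among strains, with a median absolute log2 fold change of 0.06 in the P450 genes and 0.03 in all genes tested. In edgeR, 0 of 27 P450 genes were called for female against male at an adjusted p under 0.05 with no fold minimum, where 29 of all genes tested (0.167%) were. At an unadjusted p under 0.05 there were 2, Cyp4f15 and Cyp4x1 (5.3% of all genes), and DESeq2 called 1, Cyp4f15. Cyp4f15 was higher in females by log2 0.22 (SE 0.05) over all strains, with an adjusted p of 0.0741 in edgeR and 0.0314 in DESeq2. Female means were above male means in 6 of 8 strains, with the widest gap in NOD/ShiLtJ, at 8.33 ± 2.31 CPM in females and 5.83 ± 0.455 CPM in males (SD, n = 4 each). In PWK/PhJ females had 1.18 ± 0.220 CPM and males 0.750 ± 0.317 CPM, while in C57BL/6J females had 8.30 ± 0.310 CPM and males 9.19 ± 0.850 CPM. Female and male libraries overlapped in all 8 strains. Without A/J male 2 and 129S1/SvImJ female 1 the adjusted p for Cyp4f15 in edgeR was 0.0364, and over 72 alternative settings it ran from 0.0177 to 0.443. The interaction of strain and sex was called for 0 of 27 P450 genes in edgeR (8 of all genes tested, 0.046%), with 2 at an unadjusted p under 0.05, Cyp4f15 and Cyp26b1 (10.7% of all genes), and DESeq2 also called 0.

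Lists of genes that work with P450 enzymes had median ranges of 0.45 to 1.18, where the 27 P450 genes had 1.67. The 21 P450 genes left without those known beforehand or set aside for the filter, with Cyp2j13 still among them, had 1.35. These differences were not tested. The electron donors, such as P450 oxidoreductase, had a median range of 0.45, and 0 of 11 tested genes were called at a range of at least 1 in edgeR and 0 in DESeq2. Of these 11 electron donor genes, 8 had an unadjusted p under 0.05, as 89.7% of all genes tested did, and the widest range was 0.73. Of the nuclear receptors and aryl hydrocarbon pathway genes that switch on P450 genes, 3 of 16 were called, with Rxrg, a retinoid X receptor, at 8.16 ± 0.965 CPM in PWK/PhJ and 3.29 ± 0.893 CPM in NZO/HlLtJ. Nr1i3, the constitutive androstane receptor, was highest in C57BL/6J at 0.387 ± 0.277 CPM and lowest in PWK/PhJ at 0.0813 ± 0.0495 CPM. Of 16 retinoid genes 7 were called, with Aldh1a1, which makes retinoic acid, at 57.2 ± 8.10 CPM in C57BL/6J and 16.3 ± 2.22 CPM in WSB/EiJ. Of 23 arachidonate genes 13 were called, with Alox8, a lipoxygenase, at 13.9 ± 1.05 CPM in CAST/EiJ and 1.84 ± 0.322 CPM in 129S1/SvImJ. Of 3 enzymes with a P450 fold but another kind of symbol 2 were called, with Ptgis, the prostacyclin synthase, at 2.78 ± 0.951 CPM in NZO/HlLtJ and 0.995 ± 0.234 CPM in PWK/PhJ. The oxysterol and bile acid list had 3 of 11 called, the neurosteroid list 8 of 10 and the phase II detoxification list 8 of 14. Against each of these counts of calls at a range of at least 1 stand 27.6% of all genes tested. Whether listed genes at low levels, such as Nr1i3, passed the filter only through high strains was not checked.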

How the data were processed

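For hippocampal total RNA, the authors deposited raw, unnormalized gene counts as 1 table (TRIzol Plus with DNase, TruSeq libraries, per the labels' protocols). Per the submitters' processing notes the genome was GRCm39, and Ensembl release 105 stands in the table's name. The aligner, the counting tool and whether each strain was aligned to its own genome are not given in the sources used here. If 1 reference was used, divergent strains may lose reads or have them counted on a related gene, which was not tested. Symbols came from GENCODE M21 by Ensembl identifier (32146 of 32227 matched). 14 columns were matched to titles that differ by 1 digit.

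Counts were tested with edgeR 4.0.16 in R 4.3.3: filterByExpr (minimum count 10), TMM, 16 means of strain and sex, a robust quasi-likelihood fit with 48 residual degrees of freedom, and Benjamini-Hochberg adjustment over 17382 genes. Calls required an adjusted p under 0.05 and, among strains, a log2 difference of at least 1. DESeq2 1.42.0 was an alternative. Both were run on all genes, and the edgeR fit was tested on simulated data. CPM used TMM-scaled totals, and levels were divided by exon length only to compare genes. Intervals are exact binomial (scipy 1.17.1), at 95%, for counting error only, and floors are 3 counts over a strain. Where a group of strain and sex held no count (Cyp2c70, Cyp2f2, Cyp4a12b), fitted folds depend on the prior count. The P450 genes and the gene lists were chosen with earlier results of these data known. All genes called among strains, or with a mean of at least 1 CPM, and Cyp4f15 and Cyp2c70, were described singly.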

Additional observations from a re-analysis of the deposited data

Results flagged for a closer look

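In 17 of 213 sets of 8 libraries of a strain, the highest or lowest library stood apart from the other 7 by Dixon's criterion (gap over range above 0.526). Chance gives such a gap in about 1 in 20 sets (5%). Among genes above 1 CPM, high libraries were NOD/ShiLtJ female 2 for Cyp1b1 (7.43 CPM, next library 4.50), C57BL/6J male 4 (37.6 CPM, next 32.1) and NOD/ShiLtJ female 1 (42.4 CPM, next 28.8) for Cyp2d22, CAST/EiJ male 3 for Cyp2j6 (42.7 CPM, next 37.0) and 129S1/SvImJ female 3 for Cyp4f15 (14.8 CPM, next 11.0). NOD/ShiLtJ female 1 was also the low library for Cyp26b1 (12.2 CPM, next 18.2). Low libraries were further WSB/EiJ male 3 for Cyp1b1 (1.67 CPM, next 2.62), A/J female 1 for Cyp2d22 (23.9 CPM, next 26.1) and C57BL/6J male 1 for both sterol enzymes, Cyp27a1 (1.65 CPM, next 2.45) and Cyp39a1 (0.618 CPM, next 1.07). In genes under 1 CPM, high libraries were CAST/EiJ female 1 for Cyp26a1 (0.483 CPM, next 0.302), 129S1/SvImJ male 1 for Cyp2r1 (0.655 CPM, next 0.398) and C57BL/6J male 4 for Cyp4a12b (0.325 CPM, next 0.0515). A single count in an otherwise empty strain gave the others: Cyp2c70 in NOD/ShiLtJ male 1 (0.0392 CPM), Cyp4a12b in CAST/EiJ female 1 (0.0439 CPM), and Cyp4a12b and Cyp2f2 in PWK/PhJ female 2 (0.0458 CPM each).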

How the results depend on the processing

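No fold change of a called strain turned its direction under any alternative run. Among strains 21 P450 genes were called; 36 were without a count filter, 12 with a mean of at least 50 counts, and 12 at a log2 minimum of 2. In the order CAST/EiJ, PWK/PhJ, WSB/EiJ, NOD/ShiLtJ, NZO/HlLtJ, A/J, 129S1/SvImJ and C57BL/6J, no fold minimum gave 23, 17, 13, 13, 11, 18, 14 and 17 calls against 12, 6, 3, 2, 4, 4, 4 and 5 with the minimum of 1. A log2 minimum of 2 gave 3 in CAST/EiJ, 3 in PWK/PhJ, 1 in NOD/ShiLtJ, 1 in NZO/HlLtJ, 0 in A/J, 0 in 129S1/SvImJ and 2 in C57BL/6J. Without a count filter there were 25 calls in CAST/EiJ, 12 in PWK/PhJ, 7 in WSB/EiJ and 7 in NOD/ShiLtJ. At a mean of at least 50 counts there were 6 in CAST/EiJ, 3 in PWK/PhJ, 1 in WSB/EiJ, 0 in NOD/ShiLtJ, 1 in A/J, 2 in 129S1/SvImJ and 2 in C57BL/6J. These minimums and filters change how many genes can be called by their construction. For sex, 1 gene was called in place of 0 by DESeq2 and, in an alternative chosen after seeing the data, without the 2 libraries that stand apart. Leaving out each library in turn gave 20 to 22 calls among strains, 12 to 12 in CAST/EiJ, 5 to 6 in PWK/PhJ, 2 to 3 in WSB/EiJ, 1 to 3 in NOD/ShiLtJ, 4 to 5 in NZO/HlLtJ, 4 to 5 in A/J, 4 to 5 in 129S1/SvImJ, 4 to 6 in C57BL/6J, 0 to 1 for sex and 0 to 0 for the interaction. Leaving out 8 libraries, each in turn, ended 10 calls of a strain. In 6 of these 10, from leaving out 4 libraries, for Cyp2j13, Cyp2f2 and Cyp4f16, a group of strain and sex was left with no count and the test returned a p of 1 with the fold change nearly as before (Cyp2j13 without C57BL/6J male 3, Cyp2f2 without NOD/ShiLtJ male 3 or WSB/EiJ female 1, Cyp4f16 in PWK/PhJ without WSB/EiJ female 2). The other 4 are Cyp2f2 in C57BL/6J and Cyp26a1 in NOD/ShiLtJ, given above. DESeq2 and a choroid plexus covariate changed no single call among strains or of a strain against the other 7. No paired analysis was possible because replicate numbers were given in deposition order and pair no libraries. At 3 counts over 8 libraries the floor lay between 0.0158 and 0.0182 CPM, and levels under it rest on very few counts.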
